A study of Mus musculus with 6 samples.

Results

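The let-7 family comprises small RNAs that share the seed, the stretch at the 5′ end with which a miRNA pairs with its target mRNAs. The members were the assays named let-7a, let-7b, let-7c, let-7d, let-7e, let-7f, let-7g, let-7i and miR-98 in the table of cycle thresholds, without the passenger strands, which carry an asterisk. All 9 were present, out of 596 mouse miRNA assays, and each was detected in all 6 samples. Total RNA from whole aortas was profiled by quantitative real-time PCR arrays. The EC-Dicerflox group had 3 mice of the strain VE-Cadherin-CreERT2Dicer1flox/flox/Apoe-/-, and the EC-DicerWT group had 3 littermates of the strain VE-Cadherin-CreERT2Dicer1WT/WT/Apoe-/-. All were females without apolipoprotein E that carried the tamoxifen-inducible Cre recombinase under the endothelial VE-cadherin promoter, received tamoxifen on 5 days, and were 6 to 8 weeks old when a high-fat diet with 21% fat and 0.15% cholesterol began for 12 weeks. The comparison asks which of the let-7 miRNAs differ in the aortic wall when endothelial cells lose Dicer.

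Let-7 miRNAs are made from hairpin precursors by Drosha in the nucleus and Dicer in the cytoplasm, and the RNA-binding protein LIN28 blocks their maturation. The family is abundant in differentiated tissues, restrains growth-promoting transcripts such as Hmga2 and Ras family mRNAs, and is expressed in both endothelium and smooth muscle. MiR-98 belongs to the family by sequence. The study names the let-7 family among miRNAs with a high turnover in endothelial cells after silencing of Dicer. Cre was directed to endothelial cells, whereas the RNA came from the whole vessel wall, so fewer cells of a type and less RNA per cell cannot be told apart.

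The mature sequences, from RefSeq (GRCm38.p6), show why the family was read as one group and how little separates its members. The seed, bases 2 to 8, is in capitals, and the prefix mmu, for the mouse, is left off elsewhere.
mmu-let-7a: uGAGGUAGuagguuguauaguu
mmu-let-7b: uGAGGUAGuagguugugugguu
mmu-let-7c: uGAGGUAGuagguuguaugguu
mmu-let-7d: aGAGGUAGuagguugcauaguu
mmu-let-7e: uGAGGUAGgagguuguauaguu
mmu-let-7f: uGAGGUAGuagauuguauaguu
mmu-let-7g: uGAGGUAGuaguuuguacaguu
mmu-let-7i: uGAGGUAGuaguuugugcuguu
mmu-miR-98: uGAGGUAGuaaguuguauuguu
All 9 members had 1 seed in common. Counted from the 5′ end and with the base of let-7a first, let-7c differed from let-7a by A19G, let-7e by U9G and let-7f by G12A. Let-7b differed by A17G and A19G, let-7d by U1A and U16C, let-7g by G12U and U18C, and miR-98 by G11A and A19U. Let-7i was the most distant from let-7a, with G12U, A17G, U18C and A19U. Between 1 and 6 bases differed in the 36 pairs of members, and 4 pairs differed at 1 base. Whether the assays tell such neighbours apart was not tested here.

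The genes of the members lie at separate places in the genome (all coordinates are of the mature RNA in GRCm38.p6). Let-7d (chr13:48536078-48536099, minus strand), let-7f (chr13:48537889-48537910, minus strand) and let-7a (chr13:48538239-48538260, minus strand) form 1 cluster. The hairpin of another let-7a copy (chr9:41536716-41536811, plus strand) lies beside that of miR-100. Let-7b (chr15:85707325-85707346, plus strand) lies beside a copy of let-7c (chr15:85706616-85706637, plus strand) within the bounds of the long noncoding RNA gene Lncppara. The other copy of let-7c (chr16:77599672-77599693, plus strand) has miR-99a as neighbour. Let-7e (chr17:17830366-17830387, plus strand) lies between miR-99b and miR-125a, within the bounds of Spaca6. MiR-98 (chrX:151913229-151913250, plus strand) and a second copy of let-7f (chrX:151912353-151912374, plus strand) lie within the bounds of Huwe1, which encodes a ubiquitin ligase, and let-7g (chr9:106178846-106178867, plus strand) within those of Wdr82. Let-7i (chr10:122985698-122985719, minus strand) had no other miRNA gene within 10 kb. Exons and introns of these host genes were not examined.

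The values are threshold cycles (Ct). They count the PCR cycles needed until the fluorescence of an assay passes its threshold, so a higher Ct stands for less RNA. A level was computed as the mean Ct of 5 control small RNAs in a sample minus the Ct of the miRNA, which puts it on a log2 scale if each cycle doubles the product. The reference Ct was 19.9 in EC-Dicerflox and 19.7 in EC-DicerWT aortas on average. The third replicates of both groups stood apart in 22 of the 596 assays, where both were more than 2 cycles above or below all the rest, and no other pair of samples did so in over 9. None of the members (0 of 9) was among these assays. Markers of the tissue were present, since the smooth muscle miRNAs miR-145 and miR-143 had the lowest and fifth-lowest mean Ct (ranks 1 and 5) and the endothelial miR-126-3p ranked 12. Of the miRNAs the aorta should lack, the neuronal miR-124 lay between a Ct of 32.7 and the limit of 40, but the liver miRNA miR-122 lay between 22.3 and 26.7. The Dicer deletion itself is not measured by these assays.

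Let-7c and let-7e had the highest levels of the family, and miR-98 had by far the lowest. In EC-DicerWT aortas the mean level was 2.35 ± 0.11 (SD, n = 3) for let-7c and 2.08 ± 0.06 for let-7e, followed by let-7b (1.16 ± 0.11), let-7a (0.64 ± 0.19), let-7d (0.51 ± 0.06), let-7i (0.36 ± 0.06), let-7g (-0.71 ± 0.28) and let-7f (-1.22 ± 0.31). MiR-98 lay at -7.56 ± 1.64. This order is one of assay signals, because the efficiency of the single assays was not measured. The order held in each of the 6 mice for most neighbours. Let-7c and let-7e changed places in 1 of the 6 mice, with gaps from -0.05 to 0.51, and so did let-7a and let-7d, with gaps from -0.05 to 0.52. Neither pair of neighbours was separated beyond the spread between mice. Let-7d exceeded let-7i in all 6 mice, but by as little as 0.08. The gap between let-7f and miR-98, from 4.81 to 9.34, exceeded every other gap between neighbours. If the assays were equally efficient, let-7c would make up 30.2% ± 0.54 (SD, n = 3) of the summed signal of the family in EC-DicerWT aortas, let-7e 25.0% ± 0.59 and miR-98 0.048% ± 0.053.

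**Figure D1:**
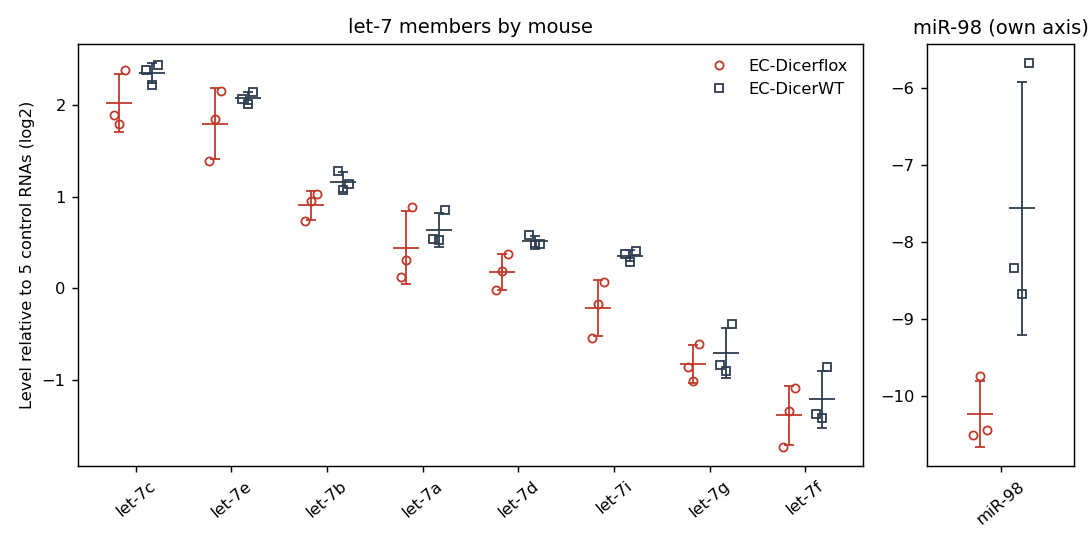
Level of each member relative to the mean of 5 control RNAs (log2, vertical axis) in EC-Dicerflox (circles) and EC-DicerWT aortas (squares); points are mice, horizontal bars are means and error bars are SD (n = 3). The groups are separate for let-7b, let-7d, let-7i and miR-98 and overlap for the other members, and miR-98, drawn on an axis of its own, lies over 4 log2 units below let-7f in each mouse.

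The mean level of all 9 members was lower in EC-Dicerflox aortas than in the littermates, but no member passed the test. The differences (EC-Dicerflox minus EC-DicerWT, log2) ranged from -0.57 for let-7i to -0.12 for let-7g among the 8 let-7 members, and miR-98 stood apart from them with -2.67. Without EC-DicerWT replicate 3 the differences of let-7f and let-7g were slightly above 0 (0.0031 and 0.0398). The median over the 9 members was -0.28, and it was -0.10 over all 439 tested assays. A lower mean was found in 61.7% of all tested assays. Thus the direction alone was common in the profile. By limma with Benjamini-Hochberg adjustment over the 439 assays, 0 of the 9 members had an adjusted P under 0.05, as did 0.0% of all assays. At an unadjusted limma P under 0.05, 1 of the 9 members passed, miR-98, against 3.87% of all assays that passed and were lower (4.78% in either direction).

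MiR-98 was detected late, and its groups were far apart. Its Ct was 29.9, 29.6 and 30.8 in EC-Dicerflox replicates 1, 2 and 3, and 27.9, 28.1 and 25.8 in EC-DicerWT replicates 1, 2 and 3. The groups did not overlap, and EC-DicerWT replicate 3 lay about 2 cycles below the other EC-DicerWT mice. The levels were -10.5, -9.73 and -10.4 in EC-Dicerflox and -8.33, -8.67 and -5.67 in EC-DicerWT aortas. The difference of -2.67 ± 0.87 (SE) corresponds to 15.8% of the EC-DicerWT level, with a 95% interval from 3.41% to 72.8%. The unadjusted limma P was 0.026 and the adjusted limma P 0.98. The difference rested in part on EC-DicerWT replicate 3, since it was -1.72 without this mouse (unadjusted limma P of 0.0073, adjusted P of 0.99). Without the third replicates of both groups it was -1.62 (unadjusted limma P of 0.021, adjusted P of 0.78), and an unadjusted P under 0.05 was lost without EC-Dicerflox replicate 1 (-2.53, limma P of 0.075 before and 0.997 after adjustment) and without EC-Dicerflox replicate 3 (-2.56, limma P of 0.072 before and 0.79 after adjustment). The pooled SD of miR-98 between mice was 1.20, compared with a median of 0.57 among the 111 tested assays with a mean Ct from 27 to 30, of which 84 had a smaller SD.

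Let-7i had the lowest difference among the 8 let-7 members. Its levels were -0.54, -0.17 and 0.07 in EC-Dicerflox replicates 1, 2 and 3, and 0.37, 0.29 and 0.41 in EC-DicerWT replicates 1, 2 and 3. All EC-Dicerflox mice lay below all EC-DicerWT mice, and the EC-DicerWT mice lay close together. It differed by -0.57 ± 0.24 (SE), and thus reached 67.2% of its level in EC-DicerWT aortas, with a 95% interval from 44.1% to 102%. The unadjusted limma P was 0.060 and the adjusted limma P 0.98. The unadjusted limma P of let-7i was under 0.05 in 6 of the 20 alternative settings, among them snoRNA135 alone as reference (0.041, adjusted P of 0.99) and a separate reference per card (0.023, adjusted P of 0.68).

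Let-7d and let-7b were the other members whose groups did not overlap. The levels of let-7d were -0.02, 0.19 and 0.37 in EC-Dicerflox and 0.59, 0.47 and 0.49 in EC-DicerWT aortas (replicates 1, 2 and 3 in each). Those of let-7b were 0.73, 0.96 and 1.03 in EC-Dicerflox and 1.28, 1.07 and 1.14 in EC-DicerWT aortas. Both separations were narrow, with 0.10 log2 units for let-7d and 0.04 for let-7b between the nearest mice of the groups. The difference was -0.33 ± 0.21 (SE) for let-7d and -0.26 ± 0.20 for let-7b, with unadjusted limma P values of 0.17 and 0.26 and an adjusted limma P of 0.99 for both. In all, 4 of the 9 members were separate between the groups, all lower in EC-Dicerflox aortas, while 7.06% of all tested assays were lower without overlap. Members of 1 sample share its RNA and reference and are not independent, so the count of members was not tested.

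The other members overlapped between the groups. Let-7c, the member with the highest level, had levels of 1.89, 1.80 and 2.39 in EC-Dicerflox and 2.39, 2.23 and 2.44 in EC-DicerWT aortas, with EC-Dicerflox replicate 3 among the EC-DicerWT mice. Its difference was -0.33 ± 0.25 (SE). This corresponds to 79.8% of its level in EC-DicerWT aortas, with a 95% interval from 51.7% to 123% (unadjusted limma P of 0.24, adjusted limma P of 0.99). Let-7e had levels of 1.39, 1.85 and 2.16 in EC-Dicerflox and 2.07, 2.02 and 2.15 in EC-DicerWT aortas, a difference of -0.28 ± 0.27 (SE). The highest EC-Dicerflox mouse was again replicate 3. Let-7a (-0.20 ± 0.29, SE), let-7f (-0.17 ± 0.29, SE) and let-7g (-0.12 ± 0.25, SE) had the smallest differences. Their 95% intervals, from 52.8% to 144%, from 53.4% to 147% and from 59.2% to 143% of the EC-DicerWT level, include no change as well as a loss of over 40%. Single mice moved these values, since let-7a was -0.04 and let-7e -0.07 without EC-Dicerflox replicate 1, and -0.42 and -0.46 without EC-Dicerflox replicate 3. The adjusted limma P of let-7a, let-7c, let-7e, let-7f and let-7g was 0.99.

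**Figure D2:**
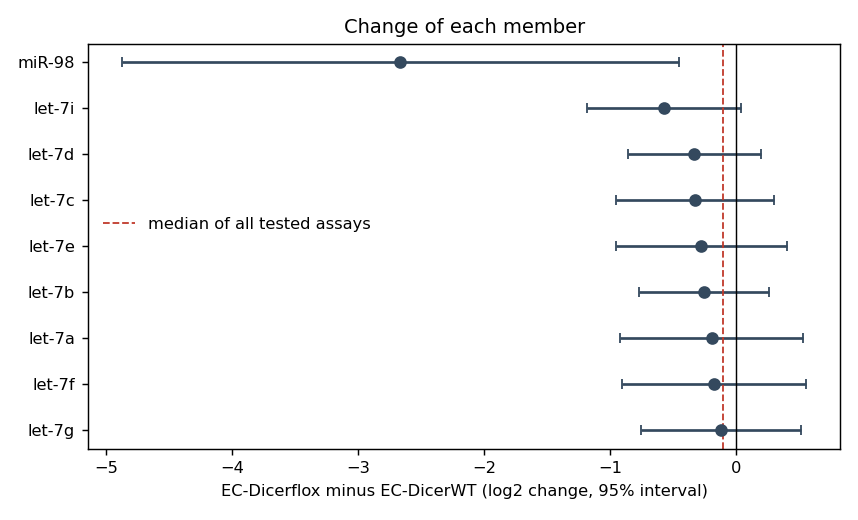
Difference of each member (EC-Dicerflox minus EC-DicerWT, log2, horizontal axis) with its 95% interval from limma (n = 3 mice per group); the dashed line is the median of the 439 tested assays at -0.10. All 9 differences lie left of 0, and the interval of miR-98, from -4.88 to -0.46, is the only one that does not reach 0.

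The mean level of the 8 let-7 members was 0.12, 0.32 and 0.65 in EC-Dicerflox replicates 1, 2 and 3, and 0.63, 0.54 and 0.78 in EC-DicerWT replicates 1, 2 and 3. EC-Dicerflox replicates 1 and 2 lay below all EC-DicerWT mice, and EC-Dicerflox replicate 3 lay among them. The difference of the means was -0.28. Without EC-Dicerflox replicate 3 the median difference of the 9 members was -0.43 and that of all tested assays -0.18, and without EC-Dicerflox replicate 1 these were -0.17 and -0.04. Once EC-Dicerflox replicate 3 was left out, 7 of the 9 members were lower without overlap, and so were 19.0% of all tested assays in this comparison of 2 with 3 mice.

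The size of the family's difference depended on the control RNA, as it did for all assays. With U6 alone as reference the median of the members was -0.66 and that of all tested assays -0.48, whereas with the global mean of the miRNAs these were -0.23 and -0.05. A change of reference adds the same amount to all members, which share a card. Hence, the distance of the let-7 members from each other was unaffected, and let-7i and let-7g kept the lowest and the highest place among the 8 let-7 members with each reference.

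**Figure D3:**
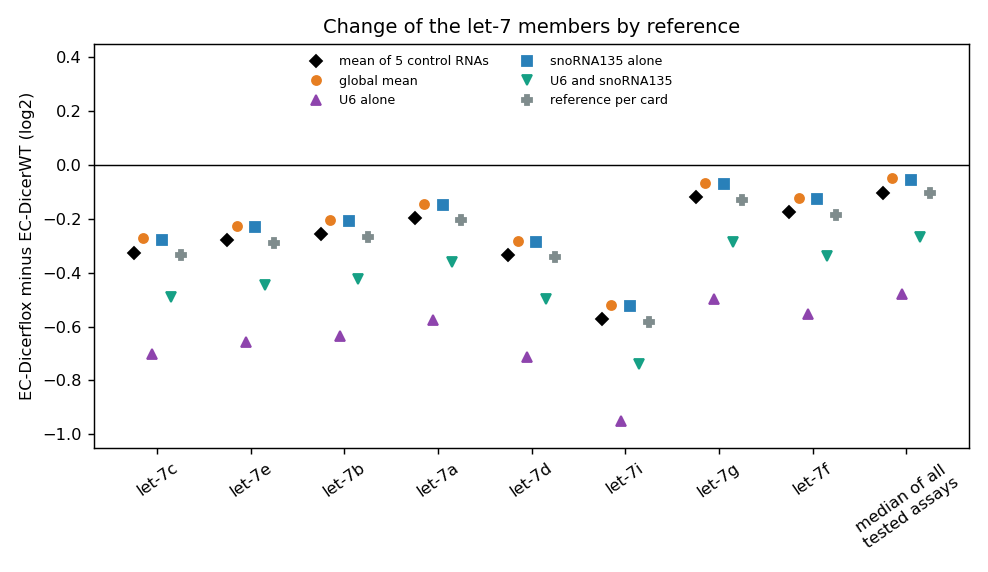
Difference of the 8 let-7 members and the median of all tested assays (EC-Dicerflox minus EC-DicerWT, log2, vertical axis) under 6 references, 1 symbol per reference. With U6 alone the values lie lowest, between -0.95 for let-7i and -0.50 for let-7g, and with the global mean they lie closest to 0.

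Differences between members within a mouse need no reference RNA, because all 9 assays are on card A. Over the 6 mice the SD of the difference between 2 let-7 members ranged from 0.06 for let-7b and let-7d, which lie in separate clusters, to 0.34 for let-7g and let-7i. Let-7i departed from the mean of the others. Relative to the mean of the other 7 let-7 members it was -0.76, -0.56 and -0.67 in EC-Dicerflox replicates 1, 2 and 3, and -0.30, -0.28 and -0.42 in EC-DicerWT replicates 1, 2 and 3. The groups did not overlap, and the difference between them was -0.33. Taken pair by pair, the groups overlapped for let-7i against let-7c and against let-7g, and were separate for let-7i against the 5 remaining let-7 members. The other 7 let-7 members each differed from the rest of the family by -0.06 to 0.19 between the groups, with overlap. MiR-98 relative to the 8 let-7 members was -10.6, -10.1 and -11.1 in EC-Dicerflox and -8.96, -9.21 and -6.45 in EC-DicerWT aortas, again without overlap. These comparisons were singled out after the values were seen and were not tested.

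Within-mouse differences were also compared for pairs of genomic neighbours and for let-7d and let-7g, which lie apart. None of the 4 differences passed its exact two-sided permutation test, and let-7e minus miR-99b was the only one without overlap. Let-7e exceeded miR-99b by 0.79, 0.89 and 0.94 in EC-Dicerflox replicates 1, 2 and 3, and by 0.47, 0.65 and 0.45 in EC-DicerWT replicates 1, 2 and 3. MiR-99b was thus lower relative to let-7e in every EC-Dicerflox mouse, by 0.35 on average (exact permutation P = 0.1, the smallest that 3 against 3 mice allow, and 0.4 after Benjamini-Hochberg adjustment over the 4 differences). Let-7e minus miR-125a-5p, the third miRNA of this cluster, was 2.87 ± 0.44 (SD, n = 3) in EC-Dicerflox and 3.14 ± 0.42 in EC-DicerWT aortas, with a difference of -0.27 (exact permutation P = 0.5, adjusted 0.67). This value depended on single mice, being -0.06 without EC-Dicerflox replicate 1 or without EC-DicerWT replicate 2, and -0.50 without EC-Dicerflox replicate 2. Let-7b minus its neighbour let-7c was -1.12 ± 0.26 (SD, n = 3) and -1.19 ± 0.10, a difference of 0.07 (exact permutation P = 0.9, adjusted 0.9). Let-7d minus let-7g, from separate loci, was 1.01 ± 0.19 (SD, n = 3) and 1.22 ± 0.30, a difference of -0.21 (exact permutation P = 0.3, adjusted 0.6). The sign of let-7b minus let-7c turned without EC-Dicerflox replicate 2 (-0.07).

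**Figure D4:**
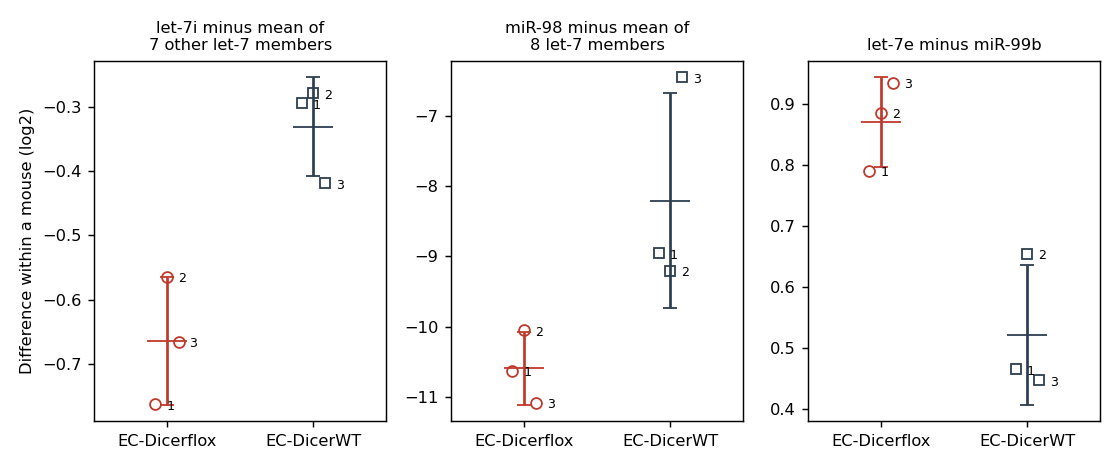
Differences within a mouse (log2, vertical axes, each panel with its own scale) for let-7i minus the mean of 7 other let-7 members, miR-98 minus the mean of 8 let-7 members, and let-7e minus miR-99b. Points are mice with their replicate numbers, bars are means and error bars SD (n = 3), and in each panel the groups do not overlap.

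MiR-99b and the other neighbours of let-7 genes were also compared with the controls. MiR-99b had levels of 0.60, 0.96 and 1.23 in EC-Dicerflox and 1.60, 1.37 and 1.70 in EC-DicerWT aortas, without overlap, and a difference of -0.63 ± 0.26 (SE; unadjusted limma P of 0.055, adjusted limma P of 0.98). Of the 9 miRNAs listed as neighbours, 7 were in the table and 5 were tested. Of these, 4 were lower and 1 higher, with a median of -0.02 and 0 past either threshold, while 61.7% of all tested assays were lower. MiR-125a-5p (-0.01 ± 0.37, SE) and miR-125b-5p (-0.02 ± 0.23, SE) had differences near 0. The gene Mir125b-1 lies 45115 bases from the let-7a copy on chromosome 9, farther than the 10 kb used for let-7i. MiR-99a, beside the let-7c copy on chromosome 16, and miR-100, beside the let-7a copy on chromosome 9, were detected in 2 of the 6 mice each and were not tested. For miR-99a the Ct values below 40 were 26.5, in EC-Dicerflox replicate 1, and 38.5, in EC-DicerWT replicate 1, and its difference from let-7c was therefore not computed.

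The passenger strands, released by the same Dicer cut and mostly degraded, were measured on card B for 4 of the 10 listed hairpin arms. All 4 were lower, as were 61.7% of all tested assays, and none passed either threshold. Let-7a* differed by -0.28 ± 0.21 (SE), let-7c-1* by -0.11 ± 0.51, let-7d* by -0.45 ± 0.64 and let-7g* by -0.50 ± 0.53. The level of the let-7 strand exceeded that of its partner in all 6 mice, by 2.90 ± 0.73 (SD, n = 6) for let-7d and by 10.6 ± 0.77 for let-7c. The strands were measured on separate cards by assays of unmeasured efficiency, so these gaps are not ratios of strands. Let-7c also has a gene copy on chromosome 15, whereas let-7c-1* belongs to the copy on chromosome 16. Another assay with the let-7 seed was present, miR-1961 (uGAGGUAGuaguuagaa, chr5:92788465-92788481, minus strand). MiR-1961 is shorter than the members, and its unbroken match after the seed runs further with let-7g and let-7i than with the other members. Its Ct was between 30.6 and 33.0, and its difference was -0.04 ± 0.51 (SE; adjusted limma P of 0.99).

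The miRNAs most like the family were sought by the SD, over the 6 mice, of their Ct minus the mean Ct of the 9 members. Among the 385 other assays detected in all mice this SD was lowest for miR-99b (0.13 cycles), miR-103 (0.13), miR-495 (0.16), miR-29b (0.18) and miR-324-3p (0.19), with a median of 0.54 over all of them. The choice depended on miR-98. Without it in the mean, the assays with the lowest SD were miR-127 (0.10), miR-152 (0.11), miR-29b (0.12), miR-23b (0.12) and the smooth muscle miR-143 (0.12). Only miR-29b was in both sets. Each let-7 member set against the mean of the other 7 gave an SD from 0.11 cycles (let-7e) to 0.21 (let-7g). The named assays from outside the family were picked for the lowest SD among 385. Their closeness was thus set by the choice and cannot be weighed against that of the members. Over all 385 other assays the median SD without miR-98 in the mean was 0.46 cycles, above that of every let-7 member. These assays were not matched to the let-7 members by Ct. The SD of the level between mice had a median of 0.27 among the 105 assays with a mean Ct under 23, where the let-7 members lay. With a mean Ct from 27 to 30 it was 0.57, so abundance alone can lower such values.

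The miRNAs that the study places with let-7 or apart from it by turnover gave no separation past the adjusted threshold. The 3 other miRNAs with fast turnover were miR-103 (-0.70 ± 0.25, SE), miR-221 (-0.40 ± 0.28) and miR-27b (-0.18 ± 0.25). All were lower, as were 61.7% of all tested assays. Of them 1, miR-103, had an unadjusted limma P under 0.05 (0.034, adjusted P of 0.98), against 3.87% of all assays that passed and were lower. The slow-turnover miRNAs miR-126-3p (-0.13 ± 0.32, SE), miR-21 (-0.10 ± 0.25), miR-23a (-0.27 ± 0.30) and miR-26a (0.06 ± 0.27) had a median of -0.12. The median of the 8 let-7 members, -0.27, lay between those of both lists, -0.40 and -0.12. That of all tested assays was -0.10, near the slow-turnover list. These lists hold only 3 and 4 assays, and an order by turnover was not tested.

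Cell type markers were examined beside these results by the sum of their linear levels. For smooth muscle (miR-143 and miR-145) the sum ranged from 40.5 to 66.6 in EC-Dicerflox and from 38.8 to 55.3 in EC-DicerWT aortas, and for endothelium (miR-126-3p and miR-126-5p) from 3.94 to 6.76 and from 4.41 to 7.08. For the 5 leukocyte miRNAs it ranged from 1.69 to 2.96 and from 2.05 to 3.35, and for the erythrocyte miRNAs, 2 of 3 present, from 1.19 to 1.71 and from 0.967 to 1.60. For striated muscle, 4 of 5 present, it ranged from 2.39 to 3.32 and from 2.45 to 2.90. The sums overlapped in all 5 lists. The endothelial markers are themselves made by Dicer, so their sum cannot tell fewer endothelial cells from less miRNA per cell. Of their 15 assays 1 had an unadjusted limma P under 0.05, against 4.78% of all tested assays in either direction. It was the cardiac miR-208 (-1.65 ± 0.53, SE, unadjusted limma P of 0.024, adjusted P of 0.98), which like miR-98 was lower without overlap. Its Ct was 30.1 in EC-DicerWT replicate 3 and at least 30.7 in the other mice, so its lowest Ct fell in the same mouse as that of miR-98. The other striated muscle assays, miR-1 (-0.15 ± 0.36, SE), miR-133a (0.07 ± 0.22) and miR-133b (0.23 ± 0.25), overlapped between the groups. None of these had its lowest Ct in EC-DicerWT replicate 3. As a level relative to the control RNAs, however, miR-1 was highest in this mouse, at -1.71 against -1.74 in EC-Dicerflox replicate 3. The levels of miR-133a and miR-133b were highest in EC-Dicerflox replicate 3. The part of other tissue in the difference of miR-98 was not tested.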

How the data were processed

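Aortic RNA of 3 mice per genotype was, per the study's methods, reverse transcribed, preamplified and measured on TaqMan cards with pooled rodent primers. The authors deposited raw Ct values, where 40 stands for not detected; how the threshold was set is not given in the sources used here. Depth does not apply to Ct values, and 3 mice per group limit the precision. The assay numbers tell the cards apart by their format (335 miRNA assays on card A, 261 on card B).

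Levels were the mean Ct of 5 control RNAs (Y1, U87, U6, snoRNA202 and snoRNA135), averaged over the cards, minus the Ct of the assay. The 439 assays with a Ct under 40 in at least 3 samples were compared with limma 3.58.1 in R 4.3.3 (lmFit and eBayes, two-sided, 95% intervals), with Benjamini-Hochberg adjustment over all of them; the procedure was tested on simulated data. For within-mouse differences, two-sided exact permutation tests enumerated all 20 assignments. Groups and replicate numbers came from the labels.

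Named were all members, the fixed lists, assays with the same seed and the 5 most similar assays. Members and lists were chosen with earlier results of these data known, and miR-98 was left out as an alternative after seeing the data. Alternatives were other references, detection filters and limits, models of the variance, the replicate number as a block, and fits without single samples or without the third replicates.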

Additional observations from a re-analysis of the deposited data

Results flagged for a closer look

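The assay of a plant miRNA, which serves as a negative control and enters no comparison, had a Ct of 39.776 on card A in EC-Dicerflox replicate 1 and was undetected in all EC-DicerWT samples. The latest Ct of any member was 30.8, for miR-98 in EC-Dicerflox replicate 3.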

How the results depend on the processing

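No member reached an adjusted limma P under 0.05 in any of the 20 alternative settings, and the member differences were negative in 178 of the 180 fits of a member under a setting. The exceptions, without EC-DicerWT replicate 3, were let-7f (0.0031) and let-7g (0.0398), whose lowest values with 1 replicate left out were -0.3232 and -0.2294, without EC-Dicerflox replicate 3. MiR-98 ranged from -3.22 to -1.62 and had an unadjusted P under 0.05 in 17 of the 20 settings. The members with an unadjusted P under 0.05 numbered 2 with snoRNA135 alone, with U6 and snoRNA135, with a reference per card, with an intensity trend (let-7i and miR-98 in each) and with each assay's own variance (let-7d and let-7i), where 2.51%, 4.33%, 4.56%, 2.96% and 4.78% of all assays passed and were lower. Over the members, the median difference came to -0.66 (U6 as the only reference), -0.44 (snoRNA135 and U6), -0.43 (without the third replicates) and -0.27 (miR-98 left out). The members without overlap numbered 7 with U6 and snoRNA135 and 7 without the third replicates (10.7% and 28.0% of all assays, lower without overlap), but 3 with the global mean and 3 with snoRNA135 alone (6.15% and 5.01%), where let-7b overlapped. They numbered 6 with a reference per card (9.11%) and 4 with U6 alone (8.88%), where let-7b and let-7d overlapped and let-7a and let-7f did not. Only let-7i and miR-98 were without overlap in all 20 settings. Across the 6 settings that each left out 1 replicate, 0 to 1 members had an unadjusted P under 0.05, the median difference ranged from -0.43 to -0.17, the members without overlap from 4 to 7 (8.76% to 19.0% of all assays), and let-7b minus let-7c from -0.0703 to 0.1877. The causes were not tested, except that leaving out samples leaves fewer of them. With the replicate number as a block the median difference was -0.28, with 1 member (miR-98) under 0.05 before adjustment and 0 after it. Same-numbered samples correlated by 0.243, 0.03 and 0.386 in their deviations. Correlations between differently numbered samples were not computed, so these values cannot tell whether the shared numbers mark pairs. The numbers were not read as pairs, and the block changed no call. Let-7c minus miR-99a, and within-mouse differences with a reference per card, which leaves pairs on 1 card as they are, were not run.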
